A study of Sus scrofa with 6 samples.

Results

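The extracellular matrix genes of newborn piglet liver and the genes of the cells that deposit it are described here across 6 liver RNA libraries. The set was a list of 40 genes in 8 role classes, from fibrillar collagens to stellate and mural cell genes, matched by gene symbol to the 26733 rows of each library's table. Of the 40 genes, 34 had a row, and 28 of those reached 1 FPKM (fragments scaled to transcript length and to the fragments mapped in the library) in at least 3 libraries and were tested. COL1A1, COL4A1, COL18A1, TIMP2, TIMP3 and RGS5 could not be matched to a row and were not analysed here. COL15A1, LUM, LAMA4, FBN1, LOX and PDGFRA had a row but stayed under that level.

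All libraries came from liver of newborn Landrace x Yorkshire piglets, and the groups differ by how the sow was fed tryptophan. The 2×Trp feed held 0.26% tryptophan at both daily meals. The High-Low feed held 0.39% for the morning meal but 0.13% for that of the afternoon. There are 3 libraries per diet, and values are given below in the order of libraries 1, 2 and 3. Whether the 3 libraries of a diet came from separate piglets or litters is not stated in the labels. The p-values below therefore reflect the spread among these samples alone, and that spread may be technical. FPKM totals ran from 956426 to 1230288 per library, and the read depth behind them is unknown.

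Liver matrix is made largely by stellate cells, the vitamin A storing pericytes of the sinusoid, and by portal fibroblasts, with shares from endothelial cells and hepatocytes. Fibrillar collagens I, III and V form the tensile fibres, collagen IV with laminins and nidogen forms basement membranes, and small proteoglycans bind and space the fibrils. When stellate cells are activated they acquire smooth muscle actin and secrete more fibrillar collagen, and metalloproteinases and their TIMP inhibitors set how fast the matrix is removed.

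No matrix or stellate cell gene passed the test between the diets. Of the 28 genes, 0 passed limma's threshold of 0.05 for the adjusted p in either direction (adjusted p = 0.998 each), where 0.00917% of all 10901 genes tested passed. At an unadjusted p under 0.05 there were 0 of 28, against 3.16% of all genes tested. In 0 of the 28 did the 3 High-Low values lie entirely on one side of the 3 2×Trp values, against 7.18% of all genes tested. That count depends on single libraries: it was 8 without 2×Trp replicate 2, 3 without High-Low replicate 2, 2 without High-Low replicate 3, 1 without 2×Trp replicate 1 and 1 without High-Low replicate 1. With a library left out, fewer values are compared and the diets part more easily. No matching share of all genes was computed, so these counts cannot be read against the 7.18% or as a separation by diet. The difference was below zero for 22 genes and above it for 6, so 78.6% were negative, against 50.5% of all genes tested. The median difference in log2(FPKM + 1), High-Low minus 2×Trp, was -0.16 over the 28 genes and -0.0038 over all genes tested. That median rests on single libraries: it was -0.36 without 2×Trp replicate 2, -0.045 without 2×Trp replicate 1 and -0.28 without High-Low replicate 2 or High-Low replicate 3. With array quality weights it was -0.026, with 12 genes above zero. The 95% intervals of the 28 differences had half-widths of 0.48 to 1.13. All 28 lay below 1, and 16 of them also lay above -1. A step of 1 on this scale is more than a 2-fold change in FPKM, the more so for genes near 1 FPKM.

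**Figure D1:**
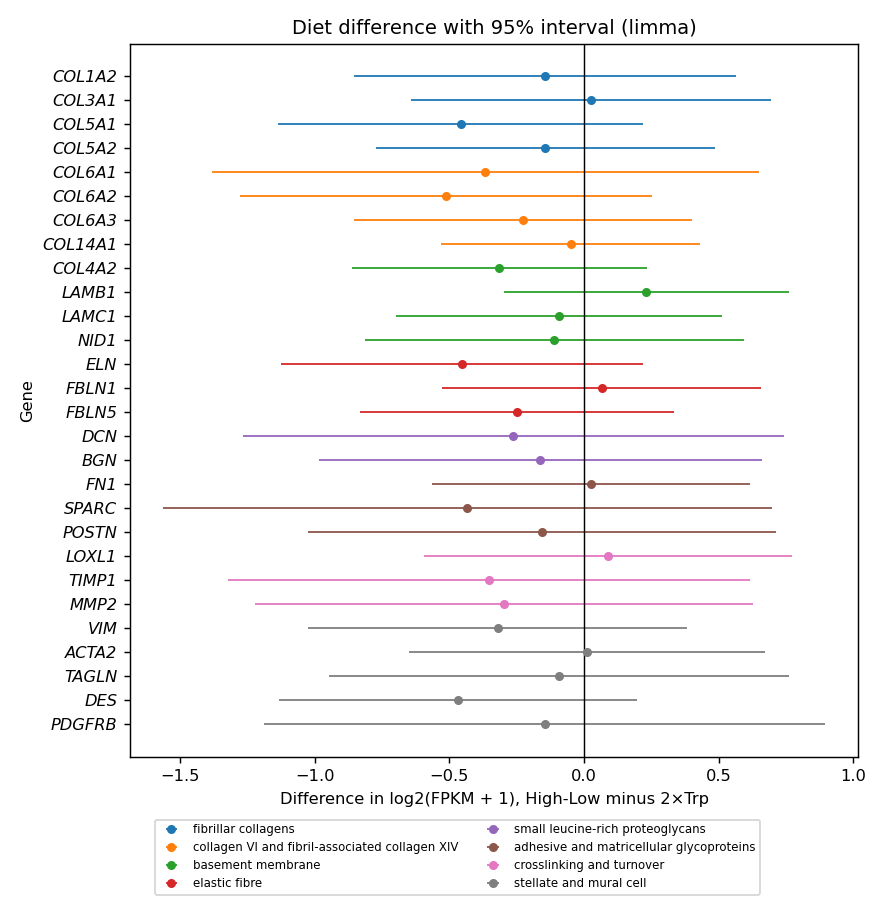
Difference between diets for the 28 tested genes. The x axis is the difference in log2(FPKM + 1), High-Low minus 2×Trp, points are limma estimates, bars are 95% intervals and colours are role classes; every interval includes 0, and estimates run from -0.51 for COL6A2 to 0.23 for LAMB1.

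Single libraries stood out within each diet. The highest of the 6 libraries exceeded the lowest by a median of 2.27-fold over the 28 genes, against 2.06-fold over the genes tested that were above 0 in every library. The narrowest gene was COL14A1 at 1.32-fold and the widest SPARC at 3.67-fold. 2×Trp 1 was the highest library for 13 of the 28 genes (46.4%, against 17.6% of all genes tested). High-Low 1 was the lowest for 12 (42.9%, against 23.7%) and 2×Trp 2 for 8 (28.6%, against 13.2%).

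One ranking of the libraries recurred among the 28 genes. It was noticed after the values were seen and is given as a description. In 23 of the 28 genes 2×Trp 2 was the lowest 2×Trp library (82.1%, against 33.9% of all genes tested), and in 17 High-Low 1 was the lowest High-Low library (60.7%, against 33.5%). Both held for 15 genes (53.6%, against 13.5%). In 9 genes the full ranking was the same, with 2×Trp 1 above 3 above 2 and High-Low 3 above 2 above 1 (32.1%, against 2.87%). These were COL1A2, COL3A1, COL5A1, COL6A1, COL6A2, COL6A3, DCN, SPARC and MMP2. Neither held for FBLN1, BGN and POSTN. In RNA from whole liver, fewer cells of a type and less RNA per cell cannot be told apart.

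**Figure D2:**
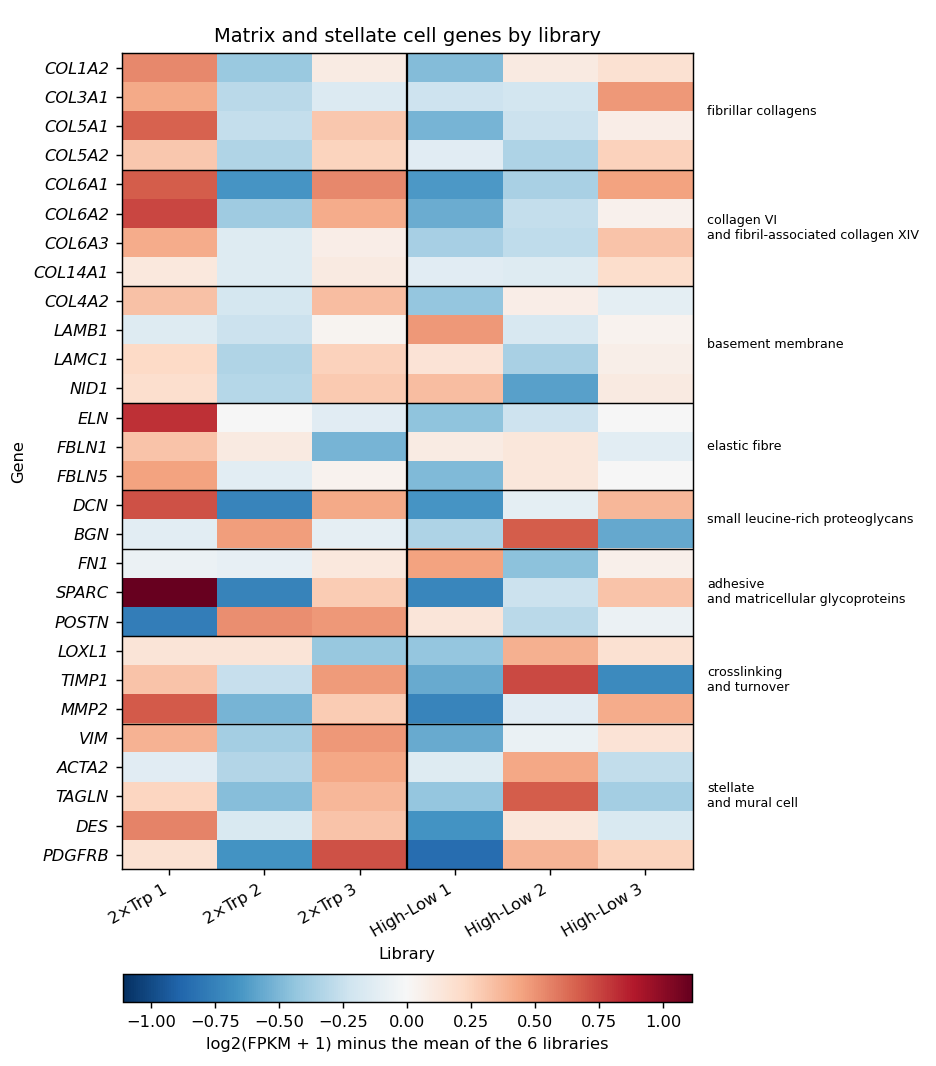
The 28 tested genes (rows, grouped by role class) in the 6 libraries (columns, 2×Trp left of the line). Colour gives log2(FPKM + 1) minus the gene's mean over the 6 libraries; most rows are blue in 2×Trp 2 and in High-Low 1, while FBLN1, BGN and POSTN are red in 2×Trp 2.

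Fibrillar collagens had 4 of 5 listed genes tested, 1 with a positive and 3 with a negative difference (median -0.14), and 0 passed. COL3A1, which encodes the homotrimeric collagen III of reticular fibres, had the highest level of the class. Its values were 56.7, 34.0 and 37.8 FPKM in 2×Trp and 35.7, 36.4 and 59.2 in High-Low. The highest 2×Trp and the highest High-Low library thus stood side by side, and the group means were 42.8 ± 12.2 and 43.8 ± 13.4 FPKM (SD, n = 3 each). The difference was 0.03 on the log2(FPKM + 1) scale (SE 0.29, 95% interval -0.64 to 0.69).

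COL1A2, the second chain of collagen I, had 18.4, 9.07 and 13.3 FPKM in 2×Trp and 8.60, 13.4 and 14.1 in High-Low. Its lowest values, in 2×Trp 2 and High-Low 1, came from opposite diets, and the difference was -0.14 (SE 0.30). COL5A1, a collagen V chain that nucleates fibrils, had 14.1, 6.97 and 10.8 FPKM against 5.69, 7.09 and 9.05. That was the widest difference of the class at -0.46 (SE 0.29, 95% interval -1.14 to 0.22), and the groups overlapped. COL5A2, its partner chain, had 4.95, 2.85 and 4.75 FPKM against 3.43, 2.82 and 4.78, with a difference of -0.14. COL3A1 and COL5A2 are neighbours on chromosome 15 of the susScr3 assembly, at 104067018 to 104105776 on the plus strand and 104122882 to 104175081 on the minus strand. Their annotated ends lie 17105 bases apart, so the genes do not overlap. COL1A2 lies at 81357192 to 81393120 of chromosome 9.

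Collagen VI, which forms beaded microfilaments around cells, is assembled from the chains COL6A1, COL6A2 and COL6A3. Including COL14A1, a collagen that coats fibrils, 4 of 4 listed genes were tested, all with a negative difference (median -0.30), and 0 passed. COL6A2 had 20.5, 8.78 and 16.1 FPKM in 2×Trp and 7.73, 9.69 and 12.3 in High-Low. Of the 28 genes it had the most negative difference, -0.51 (SE 0.33, 95% interval -1.28 to 0.25), yet 2×Trp 2 lay below 2 High-Low libraries. COL6A1 had 8.55, 2.79 and 7.67 FPKM against 2.85, 3.66 and 7.15. Its lowest values in each diet were nearly equal, and the difference was -0.37 (SE 0.43). COL6A3 had 2.21, 1.17 and 1.53 FPKM against 0.863, 0.975 and 2.00, a difference of -0.23. COL14A1 was the steadiest gene of the set, at 5.96, 4.80 and 5.89 FPKM against 4.87, 4.82 and 6.34.

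None of the tested basement membrane genes had that full ranking. Of 8 listed genes 4 were tested, 1 with a positive and 3 with a negative difference (median -0.10), and 0 passed. COL4A2, a chain of the collagen IV network, had 45.9, 31.6 and 46.3 FPKM in 2×Trp and 26.7, 38.3 and 33.6 in High-Low. High-Low 1 was lowest, as for COL1A2 and COL6A2, and the difference was -0.31 (SE 0.23, 95% interval -0.86 to 0.23). In the laminin chain LAMB1 the same library was highest, at 18.2 FPKM, beside 11.2 and 13.1 in the other High-Low and 11.5, 10.7 and 13.1 in the 2×Trp libraries. This was the most positive difference of the 28 genes, 0.23 (SE 0.23), and 0.05 without High-Low replicate 1. NID1, which links laminin to collagen IV, also peaked in High-Low 1, at 34.4 FPKM, with 17.3 and 28.8 in the other High-Low libraries. Its 2×Trp values were 30.8, 21.4 and 33.2 FPKM, inside the range of the High-Low values. LAMC1, the laminin gamma chain, had 3.49, 2.05 and 3.59 FPKM against 3.29, 2.00 and 3.03. LAMA4 ran from 0.414 to 0.870 FPKM over the 6 libraries. COL15A1 was listed at 0 in 2×Trp 3 and reached at most 0.252 elsewhere.

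Elastic fibre genes had 3 of 4 listed genes tested, 1 with a positive and 2 with a negative difference (median -0.25), and 0 passed. ELN, the elastin of vessel walls and portal tracts, had 52.6, 29.5 and 27.0 FPKM in 2×Trp and 21.4, 25.1 and 29.5 in High-Low. A single library, 2×Trp 1, stood above the other 5. The difference was -0.45 (SE 0.29, 95% interval -1.12 to 0.22), and -0.16 without 2×Trp replicate 1. FBLN5, a fibulin needed to assemble elastic fibres, had 22.5, 14.9 and 16.6 FPKM against 11.2, 17.7 and 16.2, with overlap between diets. FBLN1 had 17.1, 14.6 and 9.17 FPKM against 14.4, 14.8 and 12.4. Its lowest library was 2×Trp 3, which was lowest for none of the other tested genes. FBN1, the microfibril scaffold, ran from 0.393 to 1.20 FPKM, with the lowest value in High-Low 2 and the highest in High-Low 1.

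The small proteoglycans decorin and biglycan, both regulators of collagen fibrils, ranked the libraries differently from one another. DCN had 10.9, 3.38 and 8.77 FPKM in 2×Trp and 3.64, 5.76 and 8.42 in High-Low, with the ranking of COL1A2, COL3A1 and COL5A1 but not of COL5A2. The difference was -0.26 (SE 0.43, 95% interval -1.27 to 0.74). BGN had 241, 361 and 245 FPKM against 206, 417 and 176. Its highest values were in 2×Trp 2 and High-Low 2, and the group means were 282 ± 68.3 and 267 ± 131 (SD, n = 3 each). The difference was -0.16 (SE 0.35), and -0.54 without High-Low replicate 2. DCN and LUM, which encodes the related lumican, are neighbours on chromosome 5, at 96109666 to 96143719 and 96175704 to 96184752. LUM lies 31984 bases beyond DCN but reached at most 0.312 FPKM in any library. Of the 3 listed proteoglycans 2 were tested, both with a negative difference, and 0 passed.

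Among the adhesive and matricellular glycoproteins, 3 of 3 were tested, 1 with a positive and 2 with a negative difference (median -0.16), and 0 passed. SPARC, a collagen-binding glycoprotein of matrix-producing cells, had 227, 61.9 and 127 FPKM in 2×Trp and 62.7, 88.4 and 130.4 in High-Low. 2×Trp 1 was far above the rest, while 2×Trp 2 and High-Low 1 were nearly equal. Group means were 139 ± 83.2 and 93.8 ± 34.2 FPKM (SD, n = 3 each). The difference was -0.43 (SE 0.48, 95% interval -1.56 to 0.70), the widest interval of the 28, and 0.02 without 2×Trp replicate 1. FN1, fibronectin, which hepatocytes also secrete into plasma, had 361, 354 and 408 FPKM against 514, 274 and 391. The 2×Trp libraries were close together and lay inside the High-Low range, which High-Low 1 topped. The difference was 0.03 (SE 0.25, 95% interval -0.56 to 0.62). POSTN, periostin of activated fibroblasts, was lowest in 2×Trp 1, where SPARC was highest. Its values were 3.15, 9.14 and 8.86 FPKM against 6.76, 4.74 and 5.74.

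**Figure D3:**
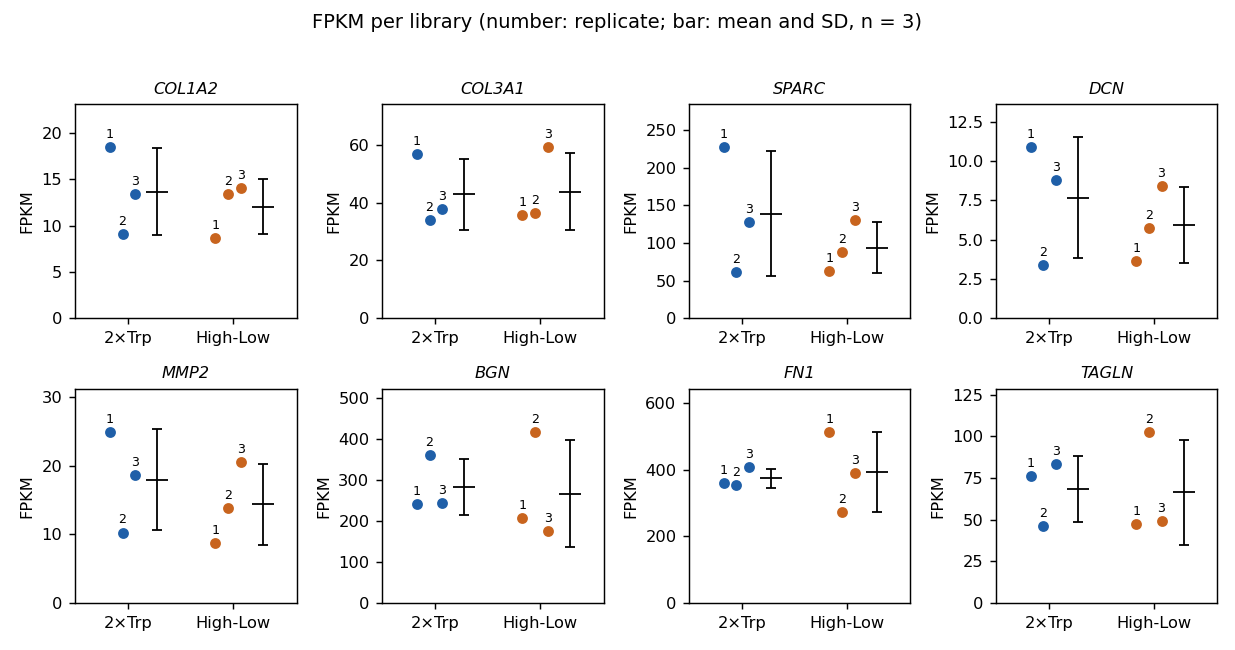
FPKM (y axes, from 0) of 8 genes in each library, 2×Trp in blue and High-Low in orange. Numbers mark the replicate, and bars give the mean and SD (n = 3); COL1A2, COL3A1, SPARC, DCN and MMP2 share one ranking of libraries, while BGN, FN1 and TAGLN peak in other High-Low libraries.

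Genes of crosslinking and turnover had 3 of 6 listed genes tested, 1 with a positive and 2 with a negative difference (median -0.30), and 0 passed. MMP2, the gelatinase of stellate cells and fibroblasts, had 24.9, 10.2 and 18.6 FPKM in 2×Trp and 8.69, 13.8 and 20.5 in High-Low. It had the ranking of COL1A2 and COL3A1, with a difference of -0.30 (SE 0.39, 95% interval -1.22 to 0.63). TIMP1, a secreted inhibitor of metalloproteinases, had 8.99, 5.73 and 10.2 FPKM against 4.46, 12.4 and 3.93. High-Low 2 was its highest library and High-Low 3 its lowest, so the other diet lay entirely between them. Its difference was -0.35 (SE 0.41), and -0.81 without High-Low replicate 2. LOXL1, a crosslinker of elastin, had 2.67, 2.69 and 1.48 FPKM against 1.47, 3.39 and 2.73. LOX, the crosslinker of fibrillar collagen, ran from 0.135 to 0.757 FPKM, with its lowest value in High-Low 2 and its highest in High-Low 1.

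Stellate and mural cell genes had 5 of 7 listed genes tested, 1 with a positive and 4 with a negative difference (median -0.15), and 0 passed. DES, the desmin filament of stellate and muscle cells, had 24.5, 14.4 and 20.7 FPKM in 2×Trp and 9.99, 18.0 and 14.5 in High-Low. Of the 28 genes it had the smallest unadjusted p in limma (0.14), while its adjusted p was 0.998, the same as for every member tested. Its difference was -0.47 (SE 0.28, 95% interval -1.13 to 0.20). VIM, the vimentin filament of mesenchymal, endothelial and blood cells, had 66.1, 38.5 and 70.7 FPKM against 33.8, 48.0 and 56.2, a difference of -0.32. PDGFRB, the platelet-derived growth factor receptor of pericytes, had 11.9, 6.21 and 17.7 FPKM against 5.35, 13.9 and 12.5. The spread within each diet was wide, and the difference was -0.15 (SE 0.44). PDGFRA, the related receptor of fibroblasts, ran from 0.525 to 1.35 FPKM.

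The contractile genes ACTA2 and TAGLN had their highest value in High-Low 2. ACTA2, smooth muscle actin, had 39.5, 34.2 and 58.7 FPKM in 2×Trp and 39.0, 58.7 and 35.6 in High-Low. 2×Trp 3 and High-Low 2 stood together above the other 4 libraries, and the difference was 0.01 (SE 0.28, 95% interval -0.65 to 0.67). TAGLN, transgelin of the same contractile programme, had 75.9, 46.1 and 83.3 FPKM against 47.2, 103 and 49.2. It too was highest in High-Low 2, and the difference of -0.09 (SE 0.36) was -0.45 without that library.

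Ratios within a library do not depend on scaling between libraries. In the 4 pairs tested, the exact permutation test (two-sided, 20 arrangements, smallest possible p = 0.1) gave adjusted p-values of 0.4 to 0.9. COL6A1 stood at 0.417, 0.317 and 0.477 of COL6A2 in 2×Trp and at 0.369, 0.378 and 0.582 in High-Low (exact permutation p = 0.7). COL6A3 stood at 0.258, 0.422 and 0.200 of COL6A1 against 0.303, 0.267 and 0.280 (exact permutation p = 0.9). In the deposited per-length values, COL6A2 thus lay above COL6A1 and COL6A1 above COL6A3 in every library. That order rests on listed lengths of 599 for COL6A2, 253 for COL6A1 and 699 for COL6A3, whose meaning is not given. LAMB1 was 3.28, 5.20 and 3.63 times LAMC1 in 2×Trp and 5.54, 5.60 and 4.32 times in High-Low (exact permutation p = 0.2). ACTA2 was 1.61, 2.37 and 2.83 times DES against 3.90, 3.26 and 2.46 times (exact permutation p = 0.2). In both of these pairs the groups overlapped. The planned ratios with COL1A1 and COL4A1 could not be formed.

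Further ratios were chosen after the values were seen and are given without a test. COL3A1 was 2.71 to 4.21 times COL1A2, and COL5A1 was 1.66 to 2.84 times COL5A2. BGN was 20.9 to 107 times DCN, with the lowest ratio in High-Low 3 and the highest in 2×Trp 2. Levels are compared between genes only as the deposited per-length values allow, and the sources used here do not say what the listed lengths stand for (137 for SPARC and 2669 for POSTN).

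**Figure D4:**
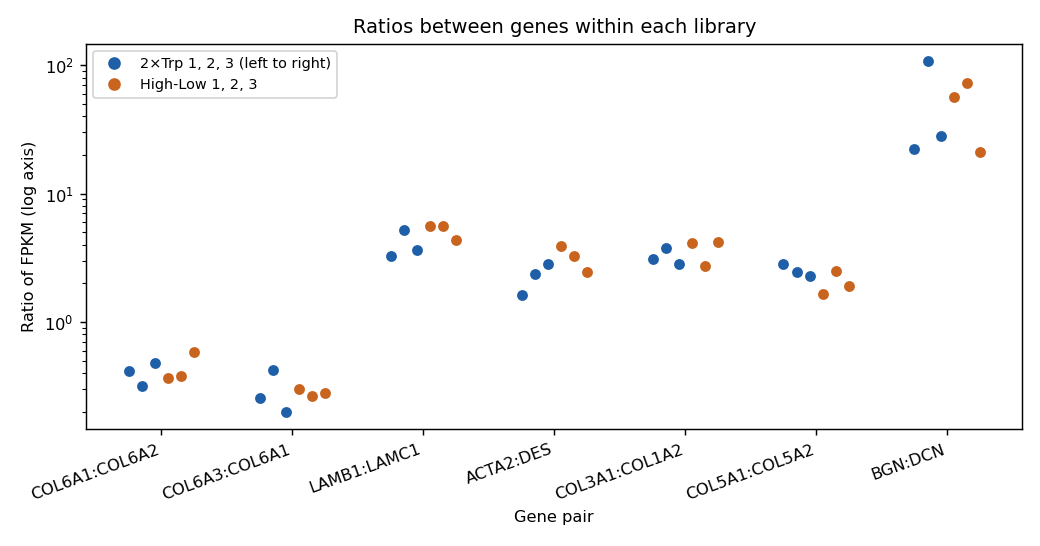
Ratio of FPKM between the genes of 7 pairs (x axis) in each library, on a log y axis, with 2×Trp in blue and High-Low in orange and replicates 1 to 3 from left to right in each colour. The collagen VI and collagen III, I and V ratios vary by 1.55-fold to 2.11-fold over the libraries, and BGN:DCN varies by 5.09-fold.

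By class, the mean deviation of log2(FPKM + 1) from the mean over the 6 libraries differed in which libraries stood apart. For fibrillar collagens it was 0.48, -0.33 and 0.12 in 2×Trp and -0.34, -0.17 and 0.24 in High-Low. Stellate and mural cell genes stood at 0.24, -0.40 and 0.46 against -0.53, 0.31 and -0.08. Basement membrane genes stood at 0.15, -0.27 and 0.23 against 0.14, -0.27 and 0.02, so High-Low 1 was not low for this class. The collagen VI and XIV genes stood at 0.49, -0.34 and 0.28 against -0.42, -0.26 and 0.25, close to the fibrillar collagens. For elastic fibre genes 2×Trp 2 was near the mean (-0.0064) and 2×Trp 3 was lower (-0.20). For adhesive and matricellular glycoproteins High-Low 2 was lowest (-0.33) and High-Low 1 near the mean (-0.049). The proteoglycans and the genes of crosslinking and turnover were lowest in High-Low 1 (-0.50 and -0.57) and stood at 0.28 and 0.34 in High-Low 2. Averaged over all 10901 genes tested, the deviations lay between -0.0154 and 0.0189. A mean over so many genes lies nearer to 0 than one over a few, so these values do not give the spread of small sets.

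Markers of other cells also differed between the libraries. The 11 tested markers of quiescent stellate cells, 2 of them also members, had a mean deviation of -0.58 in High-Low 1, and 2 had a positive and 9 a negative diet difference. Their summed level was 258 to 327 FPKM in 2×Trp and 137 to 291 in High-Low. The 9 tested endothelial markers, 9 with a negative difference (median -0.45), summed to 175 to 214 FPKM against 106 to 200 and stood at -0.48 in High-Low 1. EGFL7, picked with its values in view, made up 68.6 of the 214 FPKM in 2×Trp 1 and 106 of the 200 in High-Low 2. Of the 5 tested macrophage markers, 4 had a negative difference (median -0.68) and 4 an unadjusted p under 0.05 in limma. Such a p was also found for 2 of 5 erythroid, 1 of 11 quiescent stellate and 1 of 9 endothelial markers, with 0 past the threshold. Of all genes tested, 3.16% had an unadjusted p under 0.05 and 50.5% a negative difference. The macrophage markers summed to 413 to 572 FPKM against 247 to 444 (-0.52 in High-Low 1). C1QA, picked with its values in view, made up 335 of the 413 FPKM in 2×Trp 1. The 5 tested erythroid markers, 5 with a negative difference (median -1.01), stood at -1.31 in High-Low 1, with sums of 6170 to 15890 against 1817 to 7199 FPKM. These sums are nearly those of HBB alone, which had 15745 of 15890 FPKM in 2×Trp 1 and 1793 of 1817 in High-Low 1. The 8 tested hepatocyte markers had a mean of 0.53 in High-Low 1 and summed to 44220 to 59590 FPKM against 42650 to 65440. They did not move as one there. APOB, picked with its values in view, reached 22.6 FPKM, beside values of 1.37 to 3.82 in the remaining libraries. APOA1 was lowest in High-Low 1, at 16263 FPKM. ALB, the hepatocyte marker of smallest p, had 9391, 15282 and 11388 FPKM against 19600, 19795 and 13554 (difference 0.56, adjusted p = 0.998 in limma). The 3 tested portal fibroblast markers, ELN among them, summed to 33.6 to 62.4 FPKM against 23.8 to 35.1. ELN alone made up 52.6 of 62.4 FPKM in 2×Trp 1 and 21.4 of 23.8 in High-Low 1. The 4 tested vascular smooth muscle markers were lowest in 2×Trp 2 (-0.37), with sums of 12.4 to 22.7 FPKM against 13.5 to 16.0. In High-Low 1 they stood at 0.03. The mean deviation of the 3 bile duct markers tested was at most 0.14 in size in any library. They did not move as one, as 2 had a positive and 1 a negative difference. The negative one was SPP1, where every High-Low value lay below every 2×Trp value (difference -0.48, adjusted p = 0.998 in limma). Of 5 mesothelial markers 1, ALCAM, was tested, and WT1 was at most 0.11 FPKM. The 9 markers of activated stellate cells are all members. In none of the 10 marker lists was a matched gene at 0 in every library. The part of these cell types in the ranking of the matrix genes was not tested.

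**Figure D5:**
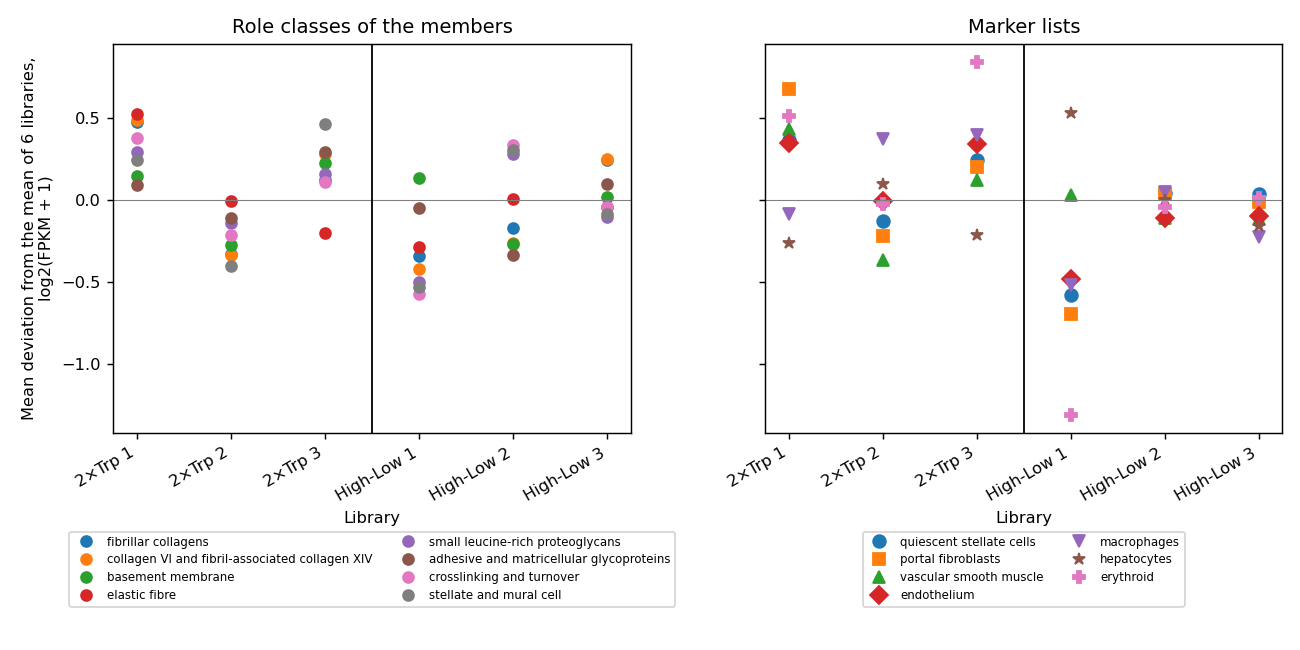
Mean deviation of log2(FPKM + 1) from the mean of the 6 libraries (y axis) for the 8 role classes (left) and 7 marker lists (right) in each library (x axis, 2×Trp left of the line). In High-Low 1 the stellate, portal fibroblast, endothelial, macrophage and erythroid markers lie between -1.31 and -0.48. Vascular smooth muscle markers lie at 0.03 there and hepatocyte markers at 0.53.

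Genes that process collagen or signal to matrix-producing cells passed in no case either. Their counts can be read against all genes tested, of which 3.16% had an unadjusted p under 0.05 and 50.5% a negative difference. Of 28 listed genes of collagen synthesis and processing 15 were tested, 9 with a positive and 6 with a negative difference (median 0.07), and 0 passed in limma, also 0 at an unadjusted p under 0.05. P3H1, a prolyl 3-hydroxylase, had 54.7, 40.9 and 44.0 FPKM in 2×Trp and 31.8, 39.7 and 28.6 in High-Low, where all 3 lay below any 2×Trp value (difference -0.47, adjusted p = 0.998 in limma). BMP1, which cleaves procollagen, had 17.1, 11.6 and 16.0 against 8.60, 12.2 and 11.3 FPKM. P4HA1, a prolyl 4-hydroxylase subunit picked with its values in view, ran from 3.61 FPKM in High-Low 2 to 48.9 in High-Low 1.

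Of 26 listed TGF-beta pathway genes 20 were tested, 7 with a positive and 13 with a negative difference (median -0.24). In limma 0 passed the threshold and 2 had an unadjusted p under 0.05, against 3.16% of all genes tested. The 2 were TGFBI and SMAD6. TGFBI, a matrix protein induced by TGF-beta, had 46.1, 36.2 and 43.9 against 31.1, 23.2 and 31.8 FPKM. SMAD6, one of the inhibitory SMAD proteins, had 15.7, 14.3 and 15.7 against 5.63, 11.3 and 11.5. The ligand TGFB1 was picked with its values in view; it had 16.5, 15.0 and 19.9 FPKM against 7.77, 15.6 and 16.7. Of the PDGF ligands and related receptors 3 of 5 were tested, 2 with a positive and 1 with a negative difference, and 0 passed. PDGFRL had 5.39, 4.30 and 9.90 against 5.51, 2.35 and 1.39 FPKM, and the ligand PDGFC had 1.27, 1.53 and 3.03 against 3.62, 1.83 and 2.65.

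Matrix receptors had 9 of 25 listed genes tested, 8 with a positive and 1 with a negative difference (median 0.17). Of all genes tested, 50.5% had a negative difference. In limma 0 receptors passed the threshold and 2 had an unadjusted p under 0.05, against 3.16% of all genes tested. CD44, the hyaluronan receptor, had 20.4, 14.0 and 24.7 against 10.1, 11.9 and 11.3 FPKM, and ITGA6, a laminin-binding integrin chain, 3.52, 3.52 and 4.68 against 10.5, 5.72 and 5.54. Both pairs of groups did not overlap. Of 27 matrix proteases 12 were tested, 5 with a positive and 7 with a negative difference (median -0.12), and 0 passed. MMP11 was the protease of smallest p, at 84.2, 20.2 and 32.3 against 14.9, 15.4 and 37.8 FPKM.

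Other matrix and basement membrane genes had 20 of 46 tested, 3 with a positive and 17 with a negative difference (median -0.24). Of all genes tested, 50.5% had a negative difference. In limma 0 of the 20 passed the threshold and 3 had an unadjusted p under 0.05, against 3.16% of all genes tested. VTN, vitronectin secreted by hepatocytes, had 3558, 3360.2 and 3924 FPKM in 2×Trp and 2544, 1647 and 2406 in High-Low. ECM1, a secreted matrix protein also among the stellate markers, had 58.8, 48.8 and 61.5 against 21.6, 40.7 and 32.4 FPKM. In both genes every High-Low value lay below every 2×Trp value, with differences of -0.74 (SE 0.22) for VTN and -0.85 (SE 0.26) for ECM1, and neither passed (adjusted p = 0.998 in limma). No member of the set showed such a separation.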

How the data were processed

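RNA of newborn piglet liver was sequenced from TruSeq libraries, per the labels' protocols, with 3 libraries per maternal diet grouped and numbered from the sample titles. Per the submitters' processing notes, the assembly was susScr3 and the tools included TopHat2 2.0.12, Bowtie2 2.2.3 and HTSeq 0.6.1. The sources used here do not give how the values were made, or with which annotation and strand setting. Each library has its own table, which the authors deposited without a stated unit. These deposited values were taken to be FPKM, since they are not whole and their totals differ between libraries. The value times listed length mostly missed whole multiples, which is no evidence for that unit. Read counts were not recovered, and depth is therefore unknown. Of 25322 Ensembl identifiers, 11804 matched a symbol.

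The 10901 genes that reached 1 FPKM in 3 or more libraries were compared on log2(FPKM + 1), a scale that understates changes of low genes, with limma 3.58.1 in R 4.3.3 (moderated variance with trend, robust), with Benjamini-Hochberg adjustment over all of them and a threshold of 0.05. Differences are in log2(FPKM + 1), High-Low minus 2×Trp. The step was also run on simulated data with independent genes and changes larger than any difference of a member. That run does not measure its power at the differences seen here. Ratios used an exact permutation test. The members, lists and role classes were chosen with earlier results of these data known. Named genes were the 2 of highest mean and the 2 of smallest p in each role class, the genes of the ratios with PDGFRB, and at most the 2 of smallest p in each other list. FBLN1, LOXL1 and the members under the filter are named beyond that rule, so that every member is accounted for. APOB, WT1, C1QA, EGFL7, P4HA1 and TGFB1 are also named beyond it, after their values were seen. Marker lists are given as sums. Alternatives were another pseudocount, other filters, scalings and variance settings, array weights, a block, and leaving out each library. Figures were drawn with matplotlib 3.10.9.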

Additional observations from a re-analysis of the deposited data

How the results depend on the processing

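Of the 28 genes, 0 passed the threshold in limma under any of the 14 alternatives; the smallest adjusted p was 0.249, for TIMP1 with array quality weights. The count of genes with a positive difference went from 6 to 10 without a filter on low values, where 34 genes entered, and to 12 with array quality weights. No block was used because same-numbered libraries did not deviate together (correlations of deviations -0.216, -0.0113 and 0.0323); the replicate block left the median at -0.16 and 0 genes called. Leaving out single libraries gave medians of -0.36 to -0.045 and 0 to 8 genes without overlap between diets, the 8 without 2×Trp replicate 2. Groups part more easily when fewer values are compared, and the share over all genes tested was not computed for these counts. Array quality weights turned 8 signs, to 0.025 for COL1A2, 0.079 for COL5A2, 0.031 for COL6A1, 0.11 for COL6A3, 0.10 for COL14A1, 0.049 for DCN, 0.085 for MMP2 and -0.31 for ACTA2; the cause was not tested. No sign turned under the other 7 alternatives that kept all libraries. Leaving out single libraries turned the sign of 15 genes. The ranges were -0.39 to 0.088 for COL1A2, -0.21 to 0.24 for COL3A1, -0.16 to 0.0086 for COL14A1, -0.28 to 0.064 for LAMC1, -0.31 to 0.17 for NID1, -0.17 to 0.24 for FBLN1, -0.69 to 0.025 for DCN and -0.54 to 0.082 for BGN. They were -0.19 to 0.26 for FN1, -0.91 to 0.015 for SPARC, -0.58 to 0.067 for POSTN, -0.10 to 0.33 for LOXL1, -0.20 to 0.23 for ACTA2, -0.45 to 0.10 for TAGLN and -0.51 to 0.24 for PDGFRB. The log2 difference of the COL6A1:COL6A2 ratio ran from -0.093 to 0.25 and that of COL6A3:COL6A1 from -0.22 to 0.32; the other ratios kept their sign. A fit on recovered reads was not run. The check for whole reads took the smallest product of FPKM and length above 1, over single-exon genes, as the step. Of the low single-exon genes checked, 5.04% to 13.2% per library lay within 0.05 of a whole multiple. If that smallest product was not 1 read, the check fails for any unit, so it cannot show whether reads can be recovered. The unknown depth limits all genes near 1 FPKM.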
